A study of Homo sapiens with 12 samples.

Results

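MITF, OTX2 and PAX6 are transcription factors of the developing eye, and their transcript levels were followed over 4 clonal lines of hTERT RPE-1, a human retinal pigment epithelium line immortalised with telomerase. They are 3 of the 60708 genes in the quantification, taken by symbol from the Ensembl identifiers, and all 3 were among the 15388 genes tested. The clones mCherry_3 and mCherry_4 overexpressed the fluorescent protein mCherry alone and served as controls, and LmnB1_6 and LmnB1_16 overexpressed mCherry-LmnB1, in which lamin B1, a component of the meshwork lining the inner nuclear membrane, carries the fluorescent tag. Each clone gave 3 libraries, labelled as biological replicates, and every culture of every clone, controls included, was grown with hygromycin B and exposed to doxycycline (0.05 ug/mL, 24 hours). Since each construct is represented by 2 lines and each line is 1 clone, clonal origin and construct cannot be told apart from these data.

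The pigment epithelium and the neural retina both arise from the optic vesicle. MITF is a basic helix-loop-helix leucine zipper factor that drives pigment cell genes and, in the eye, is needed for the pigment epithelium to form. OTX2 is a homeodomain factor of the forebrain and eye that acts with MITF on pigment genes and later specifies photoreceptors. PAX6, with a paired domain and a homeodomain, belongs to the network that sets up the eye field and is retained in the neural retina, lens and cornea.

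The total estimated count per library ran from 20.6 to 29.5 M. LMNB1, the gene carried by the construct, stood at 84.98 ± 7.12 CPM (counts relative to the TMM-scaled library total, mean ± SD, n = 3 libraries) in mCherry_3 and 161 ± 7.29 in mCherry_4, against 3976 ± 164 in LmnB1_6 and 3374 ± 273 in LmnB1_16, which matches the labels. The pigment epithelium named in the labels was only partly visible in its defining genes. RPE65 and RGR of the visual cycle, the retinol carrier TTR and the pigment enzymes TYR and DCT had 0 counts in all 12 libraries. The chloride channel gene BEST1 lay between 0.372 and 0.605 CPM in the clone means. Some other genes listed for pigment epithelium function were well above 0, such as EZR at 466 to 531 TPM and SLC16A3 at 436 to 627 TPM in the clone means. Others were near 0. In mCherry_3, mCherry_4, LmnB1_6 and LmnB1_16, RLBP1 had 0, 4, 17 and 1 counts, CLDN19 0, 0, 1 and 2, and SLC16A8 4, 2, 0 and 0. The epithelial cadherin CDH1, listed here with surface and corneal epithelium markers, had 2 counts in mCherry_3, 1 in LmnB1_16 and 0 in the other clones.

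The stretches of DNA before annotated starts of the 3 genes are shown here because the changes described below concern how much transcript each gene gave. Each is the 250 bases before a RefSeq start on GRCh38.p14, read 5′ to 3′ on the gene's own strand, and capitals mark a searched motif. The first MITF start lies at chr3:69739214-69739463 (plus strand), MITF start 3 of the table at chr3:69936342-69936591 (plus strand), the first OTX2 start at chr14:56810480-56810729 (minus strand) and the first PAX6 start at chr11:31817962-31818211 (minus strand).
MITF, first start: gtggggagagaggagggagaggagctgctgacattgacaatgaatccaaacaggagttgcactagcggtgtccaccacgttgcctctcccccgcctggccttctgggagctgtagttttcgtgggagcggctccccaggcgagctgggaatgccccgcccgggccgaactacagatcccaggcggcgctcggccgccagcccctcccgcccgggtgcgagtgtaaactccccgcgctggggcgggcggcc
MITF, start 3: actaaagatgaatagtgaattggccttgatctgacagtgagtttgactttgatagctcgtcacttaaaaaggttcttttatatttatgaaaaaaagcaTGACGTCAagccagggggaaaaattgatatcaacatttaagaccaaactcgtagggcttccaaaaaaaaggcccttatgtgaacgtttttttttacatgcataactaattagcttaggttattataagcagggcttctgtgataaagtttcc
OTX2, first start: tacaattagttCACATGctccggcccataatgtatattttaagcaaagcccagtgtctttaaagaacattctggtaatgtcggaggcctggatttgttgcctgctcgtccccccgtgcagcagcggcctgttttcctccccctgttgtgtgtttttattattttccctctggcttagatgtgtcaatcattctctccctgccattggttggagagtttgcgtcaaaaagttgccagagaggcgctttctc
PAX6, first start: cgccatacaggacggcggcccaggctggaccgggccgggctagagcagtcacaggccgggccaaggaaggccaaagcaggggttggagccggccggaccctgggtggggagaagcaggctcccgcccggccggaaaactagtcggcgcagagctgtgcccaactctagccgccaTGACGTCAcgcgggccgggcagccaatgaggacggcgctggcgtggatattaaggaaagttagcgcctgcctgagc
The searched motifs, on both strands, were CACGTG and CATGTG, the E-box forms that MITF is known to bind, TGACGTCA, the cyclic AMP response element, and TAATCC, the core bound by OTX factors. All annotated starts were searched, 3 for MITF, 2 for OTX2 and 9 for PAX6, and only 4 windows are shown. The response element was present before start 3 of MITF and before the first start of PAX6, and before no other start. It occurs in 1.65% of 35116 promoters of this length, a share for single windows that does not allow for the number searched. The single capital stretch before the first OTX2 start, CACATG, is CATGTG read on the other strand, a motif found in 9.42% of promoters. CATGTG was also present before starts 2 and 5 of PAX6, which are not shown. Neither CACGTG (6.34% of promoters) nor TAATCC (5.62%) was in any of the 4 windows. The files hold 1 value per gene, so which start each clone used was not measured. A motif match is a description of the letters and says nothing about binding in these cells.

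MITF was almost without counts in LmnB1_6 and was lower in LmnB1_16 than in either control. MITF (ENSG00000187098.17, chromosome 3, 69739435 to 69968337, plus strand, GRCh38) stood at 65.3, 54.6 and 56.0 CPM in the libraries of mCherry_3 and at 48.8, 47.0 and 51.1 in those of mCherry_4. In LmnB1_16 it stood at 28.7, 34.1 and 31.0 CPM. In LmnB1_6 it had 1, 0 and 4 counts, which is 0.0428, 0 and 0.134 CPM. All 3 libraries of LmnB1_6 lay below every other library, those of LmnB1_16 lay below every control library, and no 2 of the 4 clones overlapped. In a bulk library, fewer cells with the transcript and less transcript per cell cannot be told apart.

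From the summed counts, MITF was 861-fold lower in LmnB1_6 than in mCherry_3 (95% exact interval 369 to 2653), 720-fold lower than in mCherry_4 (308 to 2220) and 459-fold lower than in LmnB1_16 (197 to 1417). These intervals cover counting error only. In edgeR's quasi-likelihood test over all 15388 genes, the Benjamini-Hochberg adjusted p was 5.89e-15 against mCherry_3, 1.42e-14 against mCherry_4 and 3.55e-14 between LmnB1_16 and LmnB1_6. All of these contrasts use the same 3 LmnB1_6 libraries. At an adjusted p under 0.05 such contrasts call many genes, namely 52.8% of all genes tested for LmnB1_6 against mCherry_3, 37.2% for LmnB1_6 against mCherry_4 and 34.4% between the LmnB1 clones. The size therefore says more than the call, and in fitted log2 fold change MITF ranked 19th from the lowest of the 15388 genes against mCherry_3 and 26th against mCherry_4.

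The MITF difference between LmnB1_16 and the controls was far smaller, and it passed the test against both. The log2 fold change was -0.91 (SE 0.10, adjusted p 1.28e-06 in edgeR) against mCherry_3, where 44.4% of all genes were called, and -0.65 (SE 0.10, adjusted p 0.00017) against mCherry_4, where 15.7% were called. The control clones themselves differed by -0.26 (SE 0.09, adjusted p 0.039) for mCherry_4 against mCherry_3, a contrast in which 37.4% of genes were called. That last call was lost on leaving out any 1 of 5 of the 6 control libraries (all but replicate 2 of mCherry_3), with adjusted p up to 0.18. The order of MITF levels was thus mCherry_3, mCherry_4, LmnB1_16 and LmnB1_6, and its first step is within what 1 library can undo.

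OTX2 had no count in LmnB1_6 and was at or slightly above the control level in LmnB1_16. OTX2 (ENSG00000165588.18, chromosome 14, 56799905 to 56810479, minus strand) stood at 12.7, 12.6 and 12.5 CPM in mCherry_3, at 10.4, 10.1 and 12.8 in mCherry_4 and at 15.1, 16.4 and 14.9 in LmnB1_16. All 3 LmnB1_6 libraries had 0 counts. The LmnB1_6 libraries were the lowest of the 12, those of LmnB1_16 the highest, and the 2 control clones overlapped. With 3 counts over the LmnB1_6 libraries as the upper limit that a count of 0 allows (0.0408 CPM), OTX2 was at least 309-fold lower in LmnB1_6 than in mCherry_3, at least 273-fold lower than in mCherry_4 and at least 378-fold lower than in LmnB1_16. The adjusted p in edgeR was 2.97e-12, 5.98e-12 and 2.17e-12 for these contrasts.

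For OTX2 in LmnB1_16 the log2 fold change was 0.30 (SE 0.11, adjusted p 0.0477 in edgeR) against mCherry_3 and 0.48 (SE 0.12, adjusted p 0.0113) against mCherry_4. Leaving out any 1 of the 6 libraries ended the first call (adjusted p 0.0716 to 0.137), and leaving out replicate 1 or replicate 2 of mCherry_4 ended the second (0.0579 and 0.0551). Between the control clones the difference was -0.18 (SE 0.12, adjusted p 0.245). From the highest level down the order was LmnB1_16, mCherry_3, mCherry_4 and LmnB1_6, in which only the step to LmnB1_6 was clear of the spread under every library left out.

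PAX6 went the other way and was higher in LmnB1_6 than in each other clone. PAX6 (ENSG00000007372.24, chromosome 11, 31784779 to 31818062, minus strand) stood at 30.7, 36.5 and 37.7 CPM in mCherry_3, at 40.4, 40.4 and 36.4 in mCherry_4 and at 37.7, 38.5 and 39.5 in LmnB1_16. In LmnB1_6 it stood at 78.6, 70.7 and 67.8 CPM. The 3 libraries of LmnB1_6 lay above all 9 others, the libraries of mCherry_4 overlapped those of mCherry_3 and LmnB1_16, and the highest mCherry_3 library lay just below the lowest of LmnB1_16.

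PAX6 was 2.07-fold higher in LmnB1_6 than in mCherry_3 (log2 fold change 1.05, SE 0.08, adjusted p 1.91e-08 in edgeR) and 1.85-fold higher than in mCherry_4 (0.89, SE 0.08, adjusted p 1.82e-07). Between the LmnB1 clones it was lower in LmnB1_16 by a log2 fold change of -0.91 (SE 0.08, adjusted p 1.57e-07). No difference passed the test for LmnB1_16 against mCherry_3 (0.14, SE 0.08, adjusted p 0.184), for LmnB1_16 against mCherry_4 (-0.02, SE 0.08, adjusted p 0.926) or between the control clones (0.16, SE 0.08, adjusted p 0.147). The sign of the last 2 values turned on the TPM scale, which corrects for effective length (0.15 and -0.10 with a pseudocount of 0.1).

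**Figure D1:**
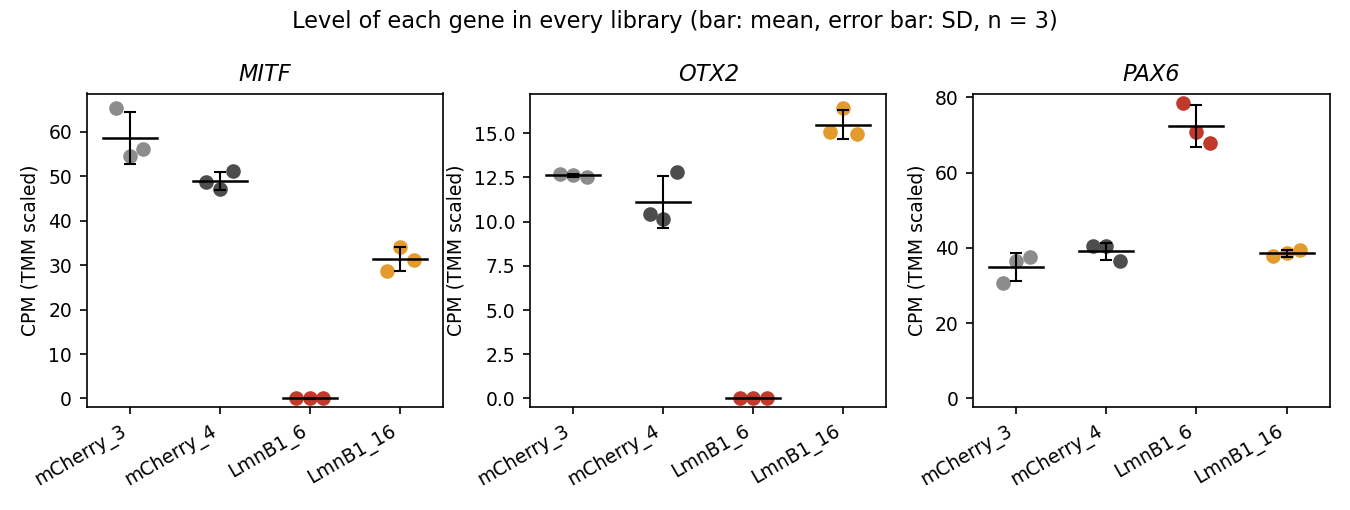
Level of MITF, OTX2 and PAX6 in every library, in CPM on a linear axis, by clone on the horizontal axis; each point is a library, the bar the mean and the error bar the SD (n = 3). The LmnB1_6 libraries sit at 0 to 0.134 CPM for MITF, at 0 for OTX2 and at 67.8 to 78.6 for PAX6, apart from the other clones in each panel.

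Per length of transcript the genes can be compared with one another. In mCherry_3 PAX6 was at 27.5 ± 4.79 TPM (the deposited abundance scaled by effective length, mean ± SD, n = 3 libraries), MITF at 26.0 ± 2.02 and OTX2 at 12.8 ± 1.63. MITF and PAX6 thus lay within their spread in that clone, and OTX2 was lower than both. In LmnB1_6 PAX6 was at 51.8 ± 7.14 TPM, MITF at 0.0815 ± 0.104 and OTX2 at 0. Among these factors the clone therefore had transcripts of PAX6 and nearly none of the other two. In LmnB1_16 PAX6 was at 28.2 ± 3.05 TPM, OTX2 at 14.8 ± 2.29 and MITF at 12.2 ± 1.51, so that MITF and OTX2 overlapped there and PAX6 exceeded both.

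Loss of counts in a single clone was uncommon among all genes. Of the 15388 tested, 19 had a mean under 0.1 CPM in LmnB1_6 and at least 5 CPM in each other clone (0.123%), MITF and OTX2 among them. The same rule met 3 genes in mCherry_3, 1 in mCherry_4 and 1 in LmnB1_16. PAX6, by contrast, had a change of a size that many genes reached, with 93.6% of genes at or below its fitted log2 fold change against mCherry_3 and 93.3% against mCherry_4.

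**Figure D2:**
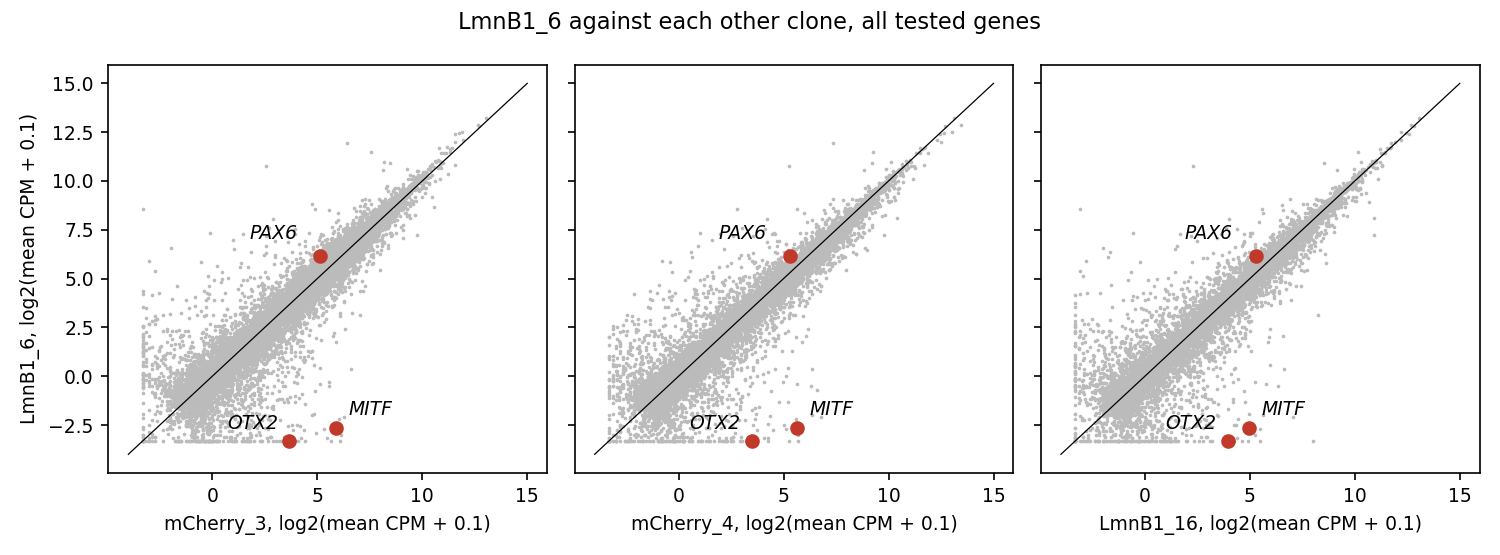
Mean level of every tested gene in LmnB1_6 (vertical axis) against each other clone (horizontal axis), both as log2(mean CPM + 0.1), with the line of equality; each grey point is a gene and the red points are MITF, OTX2 and PAX6. MITF and OTX2 lie along the lower edge, at 0.0590 and 0 CPM in LmnB1_6, and PAX6 lies just above the line.

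With the constructs compared as 6 libraries against 6, none of the 3 genes passed the test, while 17.8% of all genes did. The log2 fold change for LmnB1 against mCherry was -1.78 (SE 1.00, adjusted p 0.228 in edgeR) for MITF, -0.62 (SE 1.05, adjusted p 0.711) for OTX2 and 0.58 (SE 0.19, adjusted p 0.0519) for PAX6. For MITF and OTX2 the LmnB1 clones lay far apart. Without LmnB1_6 the difference was -0.78 for MITF (adjusted p 0.00211), 0.39 for OTX2 (0.0467) and 0.06 for PAX6 (0.68). MITF was therefore lower in the remaining LmnB1 clone, OTX2 was higher rather than lower, and most of the PAX6 difference was gone. Without LmnB1_16 the PAX6 difference was 0.97 (adjusted p 2.17e-05). With the clone as the unit, 2 against 2 cannot give an exact permutation p under 0.333.

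Genes near each factor on the chromosome were compared for the same clones, within 1000 kb either side and with positions from GENCODE 29. MITF contains the small RNA pseudogene RN7SL418P, with 0 counts, and its nearest tested neighbours are FRMD4B, 197 kb before it, and FOXP1, 984 kb after it. FRMD4B, which encodes a FERM domain protein, had 0, 0 and 0 counts in LmnB1_6, 11, 26 and 18 in mCherry_3, 10, 1 and 3 in mCherry_4 and 11, 24 and 11 in LmnB1_16. It was without counts in the clone where MITF was nearly so, although its level elsewhere was low and reached a single count in 1 control library. It was at least 16.6-fold lower in LmnB1_6 than in mCherry_3 (adjusted p 0.000385 in edgeR), at least 4.92-fold lower than in mCherry_4 (0.0168) and at least 16.5-fold lower than in LmnB1_16 (0.000656). The call against mCherry_4 was lost without replicate 1 of mCherry_4 (adjusted p 0.0836). With an effective-length offset in edgeR the calls against mCherry_4 (0.16) and LmnB1_16 (0.0845) were lost. In limma on log2(TPM + 1) all of these calls were lost (0.077 for mCherry_3, 0.279 for mCherry_4 and 0.172 for LmnB1_16). On log2(TPM + 0.1) only the call against mCherry_4 was lost (0.148).

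FOXP1, a forkhead factor gene, was higher in LmnB1_6 than in mCherry_3 (log2 fold change 0.77, adjusted p 3.58e-06) and mCherry_4 (0.27, adjusted p 0.0336). Of the 7 tested neighbours of MITF, 5 were lower and 1 higher in LmnB1_6 than in mCherry_3, and 4 were lower and 1 higher than in mCherry_4. Over all genes 26.8% were called lower and 26% higher in the first contrast, and 20.1% and 17.1% in the second. Apart from FRMD4B the falls near MITF were small, the largest being EOGT at -0.57 against mCherry_3 and -0.65 against mCherry_4, which is named here after its values were seen.

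The nearest tested neighbours of OTX2, TMEM260 at 149 kb and EXOC5 at 390 kb, did not pass the test against either control. TMEM260 had log2 fold changes of -0.22 and -0.12 (adjusted p 0.153 and 0.512 in edgeR) and EXOC5, an exocyst subunit gene, of 0.02 and -0.11 (0.829 and 0.219). Of the 5 tested neighbours of OTX2, 1 was higher and 1 lower in LmnB1_6 in each contrast with a control. Over all genes 26% were called higher and 26.8% lower against mCherry_3, and 17.1% and 20.1% against mCherry_4. PELI2 was the higher (log2 fold change 1.14 and 1.47, adjusted p 2.18e-06 and 2.43e-07 in edgeR). NAA30 was the lower (-0.33 and -0.35, adjusted p 0.00338 and 0.00359), and both are named here after their values were seen. PAX6 overlaps the 3′ end of ELP4, an Elongator subunit gene on the other strand, and the noncoding gene PAUPAR. It also overlaps AL035078.4, which is annotated as protein coding and had 0 counts in every clone. ELP4 differed from mCherry_3 by 0.21 (adjusted p 0.133) and from mCherry_4 by 0.33 (adjusted p 0.0368), and PAUPAR had 1, 2, 5 and 2 counts in mCherry_3, mCherry_4, LmnB1_6 and LmnB1_16. No source used here says whether counting used strand, and reads shared by PAX6 and these genes cannot be told apart. The flanking neighbours IMMP1L and RCN1 had log2 fold changes of 0.47 and -0.19 against mCherry_3 and of -0.04 and -0.24 against mCherry_4, none as large as that of PAX6. RCN1 passed the test against both controls (adjusted p 0.00371 and 0.00117 in edgeR) and IMMP1L against neither (0.0727 and 0.905).

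**Figure D3:**
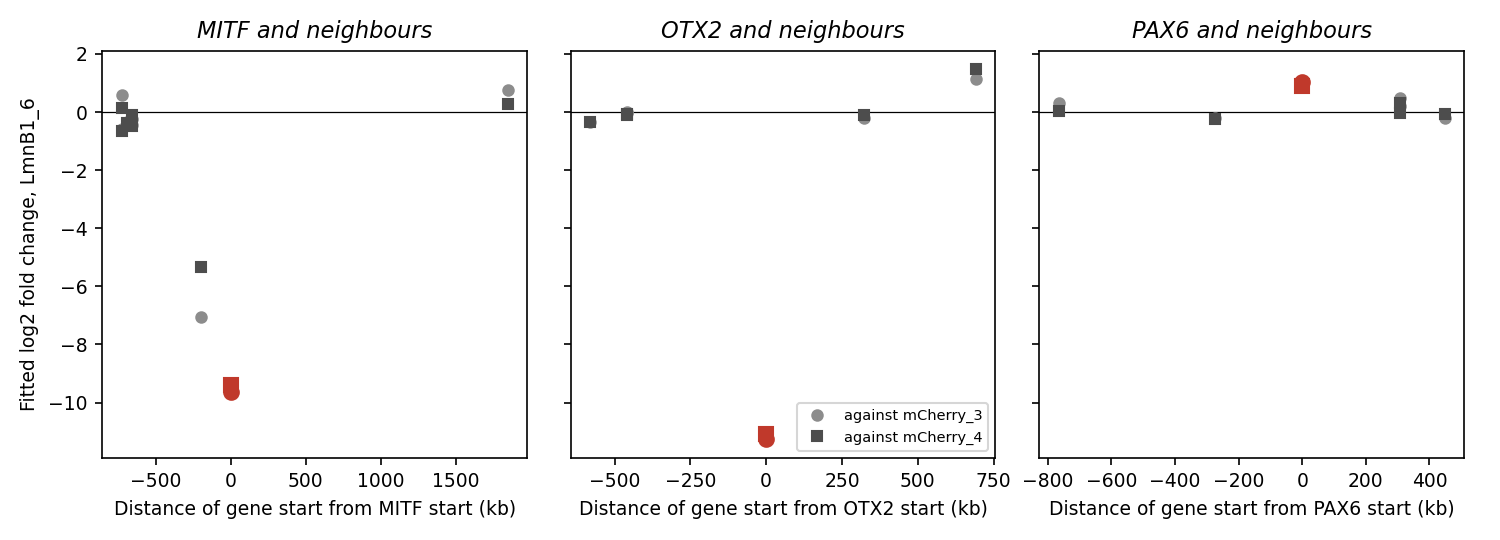
Fitted log2 fold change of LmnB1_6 against mCherry_3 (circles) and mCherry_4 (squares) for tested genes near MITF, OTX2 and PAX6, by distance in kb of each gene's start from that of the factor; red marks the factor. FRMD4B is the low pair beside MITF, and for it, as for OTX2, the fitted value depends on a small added count because LmnB1_6 had 0 counts.

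The genes whose levels ran most closely with each factor were picked by the Pearson correlation of log2(CPM + 0.1) over the 12 libraries, among 11798 other coding genes with a mean of at least 1 CPM. The points share clones, so the correlation mainly describes the differences between the 4 clones. For MITF they were DAPK1, a death-associated kinase (r 0.999), PGM5 (0.997) and the lipid transporter ABCA3 (0.996). DAPK1 stood at 70.5 ± 2.99, 51.1 ± 5.42, 0.0224 ± 0.0388 and 38.4 ± 3.12 CPM in mCherry_3, mCherry_4, LmnB1_6 and LmnB1_16 (n = 3 each), which is the order seen for MITF. PGM5 had 0 counts in LmnB1_6, at least 1239-fold below mCherry_3. For OTX2 they were DMD, the dystrophin gene (0.999), PPP1R9A (0.998) and TNFRSF11A, the receptor RANK (0.998). DMD stood at 21.3 ± 3.39, 19.1 ± 0.266, 0 and 24.5 ± 0.820 CPM in the same order of clones. For PAX6 they were LDLRAD3 (0.991), MARCKSL1 (0.984) and TCF7, a nuclear partner of beta-catenin (0.984). TCF7 stood at 21.3 ± 1.24, 27.1 ± 0.792, 120 ± 4.97 and 26.2 ± 0.770 CPM, a larger rise in LmnB1_6 than that of PAX6.

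Of the relatives of MITF, TFEC had nearly no counts in LmnB1_6, and TFE3 was at a like level in all clones. TFEC, which is expressed in pigment epithelium and macrophages, had 16, 27 and 22 counts in mCherry_3, 19, 26 and 27 in mCherry_4, 2, 0 and 0 in LmnB1_6 and 17, 12 and 16 in LmnB1_16. Every LmnB1_6 library was below every other library. The ratio was 29.4 (95% exact interval 7.83 to 248) for mCherry_3 over LmnB1_6, 37.97 (10.1 to 320) for mCherry_4 and 24.3 (6.34 to 207) for LmnB1_16, and the adjusted p in edgeR was 2.97e-05, 1.78e-05 and 0.000126. TFE3, a ubiquitous regulator of lysosomal genes, stood at 124 ± 3.44, 127 ± 3.68, 132 ± 3.25 and 125 ± 3.21 CPM in mCherry_3, mCherry_4, LmnB1_6 and LmnB1_16 and passed no test (log2 fold change 0.08, SE 0.05, for LmnB1_6 against mCherry_3). TFEB, its lysosomal counterpart, was lower in LmnB1_6 than in mCherry_3 (-0.68, SE 0.23, adjusted p 0.021) and differed by -0.09 (SE 0.24, adjusted p 0.796) from mCherry_4.

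Of 13 genes known to act on MITF expression or activity, 10 were tested. In LmnB1_6, 3 were higher and 1 lower than in mCherry_3, and 2 were higher and 3 lower than in mCherry_4, beside 26% higher and 26.8% lower, and 17.1% and 20.1%, of all genes. The list's median log2 fold change was 0.07 and 0.10, against medians of all genes of -0.0028 and 0.0021. LEF1, a nuclear partner of beta-catenin that acts on the melanocyte MITF promoter, stood at 10.7, 12.4 and 10.7 CPM in mCherry_3, 15.3, 15.9 and 14.96 in mCherry_4, 68.3, 57.4 and 60.8 in LmnB1_6 and 16.2, 14.7 and 14.5 in LmnB1_16. It was raised in LmnB1_6, where MITF was nearly without counts (log2 fold change 2.47, SE 0.09, adjusted p 1.88e-12 against mCherry_3 and 2.01, SE 0.09, adjusted p 2.35e-11 against mCherry_4). ZEB2, a zinc finger repressor, stood at 49.8, 58.7, 66.9 and 69.3 CPM in mCherry_3, mCherry_4, LmnB1_6 and LmnB1_16 and passed in the construct comparison (0.33, SE 0.08, adjusted p 0.0203). Neither LmnB1 clone passed against mCherry_4 (adjusted p 0.105 and 0.0828). PAX3 and KIT, which act upstream of MITF in melanocytes, had 0 counts in every library, and SOX10 had 0, 5, 4 and 3 counts in mCherry_3, mCherry_4, LmnB1_6 and LmnB1_16.

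Among pigment and melanosome genes, a main target group of MITF, most of those tested were lower in LmnB1_6 than in mCherry_3. Of 17 listed, 9 were tested, and TYR, DCT, OCA2 and TRPM1 had 0 counts everywhere. In LmnB1_6, 6 were lower and 2 higher than in mCherry_3 and 3 lower and 2 higher than in mCherry_4, with medians of -0.63 and -0.34. Over all genes 26.8% were lower and 26% higher in the first contrast, and 20.1% and 17.1% in the second. The summed level of the list was 166 to 171 TPM in the LmnB1_6 libraries and 267 to 302 TPM in all others. Most of that gap came from RAB32 and from MLPH, described below, so the lower sum does not describe the list as a group. In mCherry_3, mCherry_4, LmnB1_6 and LmnB1_16, MLPH stood at 49.2, 74.5, 0.443 and 78.5 TPM, and RAB32 at 138, 134, 85.0 and 118 TPM. RAB32, a small GTPase that brings enzymes to melanosomes, was lower in LmnB1_6 than in mCherry_3 (-0.57, SE 0.08) and mCherry_4 (-0.66, SE 0.08). LYST, which regulates the size of lysosome-related organelles, stood at 23.6, 19.1, 15.1 and 17.3 CPM in mCherry_3, mCherry_4, LmnB1_6 and LmnB1_16. It passed in the construct comparison (-0.40, SE 0.13, adjusted p 0.047), but neither LmnB1 clone passed against mCherry_4 (adjusted p 0.0681 and 0.575).

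MLPH, chosen after its values were seen, encodes melanophilin, which links melanosomes to the actin motor. It stood at 49.7, 45.9 and 45.6 CPM in mCherry_3, 78.2, 75.7 and 83.2 in mCherry_4, 0.556, 0.589 and 0.671 in LmnB1_6 and 81.0, 76.2 and 81.9 in LmnB1_16. The LmnB1_6 libraries alone were low. The ratio of the other clones to LmnB1_6 was 76.9 (57.3 to 106) for mCherry_3, 129 (96.4 to 177) for mCherry_4 and 131 (97.5 to 179) for LmnB1_16 (95% exact intervals, adjusted p 5.15e-16, 1.47e-16 and 8.71e-17 in edgeR). In LmnB1_16, where MITF was lower than in both controls, MLPH did not differ detectably from mCherry_4 (0.01, SE 0.06, adjusted p 0.927) and was higher than in mCherry_3 (0.76, SE 0.06).

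Of 12 other targets of MITF, 9 were tested, and in LmnB1_6 4 were lower and 2 higher than in mCherry_3 and 4 lower and 1 higher than in mCherry_4, beside 26.8% lower and 26% higher and 20.1% and 17.1% of all genes. Their medians were 0.01 and -0.20. CTSK, the protease cathepsin K, followed the order of MITF over the clones, at 77.9 ± 6.39, 55.7 ± 6.60, 14.0 ± 0.473 and 39.9 ± 5.06 CPM in mCherry_3, mCherry_4, LmnB1_6 and LmnB1_16 (n = 3 each). It fell in the construct comparison by 1.31 on the log2 scale (SE 0.32, adjusted p 0.0175 in edgeR). CDKN1A, the cell cycle inhibitor p21, fell in that comparison by 0.61 (SE 0.12, adjusted p 0.00766). It stood at 315, 309, 224 and 184 CPM in the same order, with the lowest mean in LmnB1_16 and not in LmnB1_6. The survival gene BCL2 stood at 6.19, 11.2, 16.8 and 12.9 CPM in the same order and passed in the construct comparison (0.77, SE 0.21, adjusted p 0.0253). Its control clones differed by 0.85 (adjusted p 0.000106), and LmnB1_16 did not pass against mCherry_4 (0.20, adjusted p 0.344). The lysosomal glycoprotein gene GPNMB, named after its values were seen, stood at 60.6, 69.6, 67.1 and 68.9 CPM in the 4 clones in the same order and did not pass the test in LmnB1_6 against either control (adjusted p 0.0677 and 0.572).

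Other factors of the eye field and optic cup mostly stood at 0 or were higher in LmnB1_6. Of 28 listed, 16 were tested, and RAX, SIX6 and CRX were among 8 with 0 counts in every library. In LmnB1_6, 10 were higher and 2 lower than in mCherry_3 (median 0.76) and 8 higher and 2 lower than in mCherry_4 (median 0.45), where 26% and 26.8% of all genes were called in the first contrast and 17.1% and 20.1% in the second. The control clones also differed over this list, with 8 of the 16 higher and none lower in mCherry_4 than in mCherry_3 (19.9% and 17.4% of all genes). In LmnB1_16, 8 were higher and 2 lower than in mCherry_3 and 4 higher and 2 lower than in mCherry_4, against 22.5% and 22% of all genes in the first contrast and 6.67% and 9% in the second.

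NR2F1 and NR2F2, orphan nuclear receptors that pattern the optic vesicle, were higher in both LmnB1 clones than in both controls. NR2F1 stood at 174 ± 8.37, 225 ± 17.8, 522 ± 35.6 and 300 ± 10.6 CPM in mCherry_3, mCherry_4, LmnB1_6 and LmnB1_16 (construct comparison 1.04, SE 0.18, adjusted p 0.00408 in edgeR). NR2F2 stood at 147 ± 16.3, 190 ± 7.33, 352 ± 26.6 and 233 ± 6.49 CPM (0.80, SE 0.15, adjusted p 0.00617). SOX9, which acts with MITF and OTX2 in pigment epithelium, stood at 42.6, 67.9, 83.5 and 89.3 CPM in the same order. It passed in the construct comparison (0.65, SE 0.15, adjusted p 0.0127), and both LmnB1 clones passed against both controls. The control clones themselves differed by 0.67 (adjusted p 4.01e-06). HES1, a Notch target, stood at 0.245, 1.06, 1.89 and 4.58 CPM and passed in the construct comparison (2.31, SE 0.55, adjusted p 0.0156), although the controls differed by 2.09 (adjusted p 0.0014) and LmnB1_6 did not pass against mCherry_4 (0.0781). VAX2, a ventral eye homeobox gene, stood at 3.84, 2.81, 2.24 and 2.27 CPM (-0.56, SE 0.16, adjusted p 0.0318), and neither LmnB1 clone passed against mCherry_4 (0.21 and 0.365).

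SOX2, the neural progenitor factor that works with PAX6 and OTX2, had 0, 0 and 0 counts in mCherry_3, 2, 1 and 0 in mCherry_4, 33, 40 and 93 in LmnB1_6 and 3, 10 and 5 in LmnB1_16. Counts were nearly confined to the LmnB1 clones and were highest in LmnB1_6 (at least 61.1-fold over mCherry_3, adjusted p 3.03e-06 in edgeR). SOX2 had enough counts for testing only through LmnB1_6, the clone where it was high. Its calls, and its place among the eye field genes counted as higher there, are therefore no separate support. LmnB1_16 did not pass against mCherry_4 (log2 fold change 2.50, adjusted p 0.0763 in edgeR). PAX2, the optic stalk factor and a relative of PAX6, was below the count needed for testing and is named after its values were seen. It had 9, 22 and 45 counts in LmnB1_6 and 0 in each of the other 9 libraries, at least 27.98, 24.0 and 23.5-fold over mCherry_3, mCherry_4 and LmnB1_16. OTX1, the closest relative of OTX2, stood at 1.44 ± 0.223, 1.68 ± 0.207, 2.19 ± 0.765 and 1.42 ± 0.537 CPM and passed no test (LmnB1_6 against mCherry_3 0.61, SE 0.31, adjusted p 0.114).

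A pair of further eye field genes, also named after their values were seen, moved in opposite directions. TBX2, a T-box factor of the dorsal optic cup, stood at 6.23 ± 0.558, 13.8 ± 1.46, 32.4 ± 2.67 and 10.4 ± 1.29 CPM in mCherry_3, mCherry_4, LmnB1_6 and LmnB1_16, and was higher in LmnB1_6 by 2.38 (SE 0.12) against mCherry_3 and 1.23 (SE 0.11) against mCherry_4. SIX3, an eye field homeobox gene, stood at 81.6 ± 1.09, 78.5 ± 3.66, 51.2 ± 2.93 and 77.5 ± 4.56 CPM, and was lower in LmnB1_6 by a log2 fold change of -0.67 (SE 0.06) and -0.61 (SE 0.06).

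**Figure D4:**
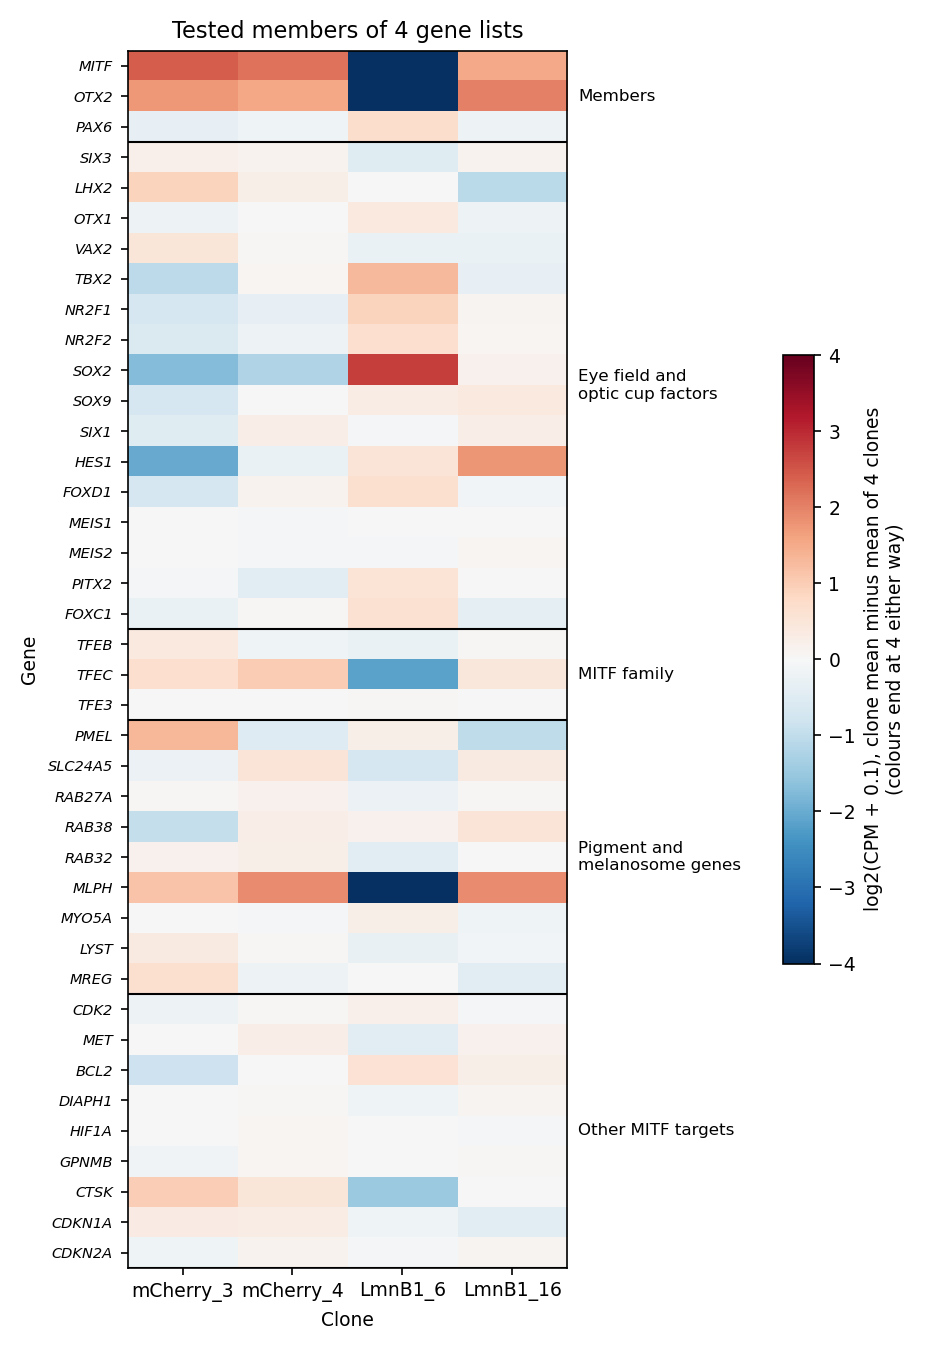
Clone means of MITF, OTX2, PAX6 and the tested genes of 4 lists (vertical axis) in the 4 clones (horizontal axis), coloured by log2(CPM + 0.1) minus the mean of the 4 clones, with colours ending at 4 either way. The deepest blue cells are in the LmnB1_6 column, for MITF, OTX2 and MLPH, and SOX2 is red there.

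Genes of pigment epithelium function gave no common direction. Of 23 listed, 16 were tested, and in LmnB1_6 5 were higher and 4 lower than in mCherry_3 and 4 higher and 5 lower than in mCherry_4 (medians -0.09 and 0.13), beside 26% higher and 26.8% lower, and 17.1% and 20.1%, of all genes. In the construct comparison 4 were higher and 2 lower, where 8.58% of all genes were called higher and 9.25% lower. Genes of retinoid handling went both ways. RDH10, a retinol dehydrogenase, stood at 14.98, 14.0, 33.3 and 27.5 CPM in mCherry_3, mCherry_4, LmnB1_6 and LmnB1_16 and rose by 1.07 (SE 0.08, adjusted p 1.36e-05 in edgeR). STRA6, the cell surface receptor for retinol binding protein, stood at 0.160, 0.504, 15.5 and 0.997 CPM (4.64, SE 0.93, adjusted p 0.00767), without passing for LmnB1_16 against mCherry_4 (0.111).

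LRAT, which esterifies retinol, stood at 3.601, 1.75, 0.171 and 1.29 CPM in the same order and passed in the construct comparison (-1.86, SE 0.58, adjusted p 0.0443 in edgeR), as did RDH5, the dehydrogenase of the visual cycle (-0.51, SE 0.14, adjusted p 0.0291). For neither did LmnB1_16 pass against mCherry_4 (adjusted p 0.401 and 0.324). SERPINF1, the pigment epithelium-derived factor, passed as well (1.46, SE 0.42, adjusted p 0.0348), without passing for LmnB1_16 against mCherry_3 (0.737). The growth factor gene BMP4, which promotes pigment epithelium fate in the optic vesicle, stood at 11.6, 11.6, 143 and 32.4 CPM and rose by 2.92 (SE 0.45, adjusted p 0.00208).

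Markers of other cell types were set beside these values. Of 10 neural retina markers, none was tested, and their summed level was 0 to 0.253 TPM over all libraries. Of 10 photoreceptor markers, 1 was tested (NRL, adjusted p 0.538 in the construct comparison in edgeR), with CRX, SAG and RCVRN among those at 0 and a summed level of 0.235 to 2.46 TPM. Of 10 lens markers, 1 was tested (BFSP1, adjusted p 0.986), with 6 crystallin and membrane genes at 0 and a summed level of 1.496 to 4.59 TPM. The 6 markers of surface and corneal epithelium summed to at most 0.335 TPM. The listed markers of neural retina, photoreceptors, lens and surface and corneal epithelium were thus low or at 0 in every clone. Only NRL and BFSP1 had enough counts to be tested.

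Of 8 melanocyte markers, PMEL and EDNRB were tested, and TYR, DCT, KIT and PAX3 were at 0, with a summed level of 1.15 to 5.24 TPM. PMEL, the melanosome fibril protein, stood at 4.54, 1.203, 2.09 and 0.815 CPM in mCherry_3, mCherry_4, LmnB1_6 and LmnB1_16, and EDNRB, the endothelin receptor of pigment cells, had 52, 9, 0 and 16 counts. Neither followed MITF over all 4 clones. Of 11 markers of fibroblasts and neural crest stroma, 8 were tested. In LmnB1_6, 5 were higher and 2 lower than in mCherry_3 and 3 higher and 4 lower than in mCherry_4 (26% and 26.8%, and 17.1% and 20.1%, of all genes). The summed level of the list was 274 to 326 TPM there against 371 to 446 in the other clones. THY1, a surface glycoprotein named after its values were seen, stood at 348, 297, 132 and 321 TPM in mCherry_3, mCherry_4, LmnB1_6 and LmnB1_16. It made up most of the sum outside LmnB1_6, so the lower sum does not describe the list as a group. COL1A1, the collagen chain gene, stood at 15.1, 17.5, 186 and 20.5 CPM in the same order. The part of these genes in the MITF, OTX2 and PAX6 differences was not tested.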

How the data were processed

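The 12 libraries are mRNA-seq of 4 hTERT RPE-1 clones. The authors deposited, per the file headers, estimated counts, TPM, gene length and effective length per gene and library. The submitters' processing notes name STAR, Salmon, DESeq2 and GRCh38 (hg38). The sources used here do not give the annotation release, strand or read length. The deposited estimated counts are not normalized and need not be whole, and they were rounded to whole numbers before testing. The deposited TPM account for effective length and served for levels between genes and as an alternative.

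Of 60708 genes, 58440 matched GENCODE 29 by Ensembl identifier, which gave positions, and 60507 had a symbol. The filterByExpr function of edgeR, grouped by clone (minimum count 10, minimum total 15), kept 15388 genes with at least 99.9% of each library's counts. With TMM factors (0.948 to 1.06), edgeR 4.0.16 in R 4.3.3 (glmQLFit, glmQLFTest) tested the 6 LmnB1 against the 6 mCherry libraries, and in another fit the 6 contrasts between clones. Calls rest on p-values adjusted over all tested genes (Benjamini-Hochberg, under 0.05). Biological coefficients of variation were 0.262 (construct fit) and 0.0842 (clone fit). The p-values measure the spread between libraries of these clones. A count of 0 in a clone was read as at most 3 counts over its libraries. Bounds and exact intervals cover only counting error. Simulated counts were tried in edgeR for LmnB1 against mCherry and for LmnB1_6 against mCherry_3 only. Apart from changes added to some genes, these counts held no clone differences, so they cannot check the construct test where clones differ. No pair of libraries agreed within sampling noise (chi-square per degree of freedom at least 3.78).

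The members and 12 gene lists were chosen with earlier results of these data known. Named list genes are those called in the construct comparison or in all 4 contrasts of an LmnB1 with an mCherry clone, at most 6 per list, or else the 2 most abundant, plus the MITF family, OTX1 and CRX. For each factor the 3 genes most like it, genes that overlap it and its nearest tested neighbour on each side were added. Genes outside this rule are marked. Promoter sequences are from RefSeq (GRCh38.p14), where all 3 symbols matched. Alternatives were other scaling, filters, tools (DESeq2 1.42.0, limma 3.58.1), TPM with pseudocounts of 0.1 and 1, a replicate block, each library or clone left out, and clones summed or as a random effect.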

Additional observations from a re-analysis of the deposited data

Results flagged for a closer look

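For each of the 3 factors the LmnB1 clones differed from one another in a direct test, LmnB1_16 against LmnB1_6 in edgeR. The adjusted p was 3.55e-14 for MITF, with a 459-fold higher level in LmnB1_16 (95% exact interval 197 to 1417), and 2.17e-12 for OTX2, which was at least 378-fold higher there. For PAX6 it was 1.57e-07, with a log2 fold change of -0.91, so that LmnB1_6 was higher. In each case all 3 libraries of one clone lay on one side of all 3 of the other.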

How the results depend on the processing

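The differences of LmnB1_6 from each other clone in MITF, OTX2 and PAX6 kept their direction and their call under all 15 alternatives run for each. PAX6 ranged from 0.90 to 1.10 (log2) against mCherry_3, from 0.83 to 1.03 against mCherry_4 and from -0.95 to -0.84 for LmnB1_16 against LmnB1_6. Depth limits MITF and OTX2 in LmnB1_6 to ratios with wide intervals or bounds. Labels give no batch. The cause of the changes below was not tested.

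For mCherry_4 against mCherry_3, MITF lost its call with an effective-length offset (-0.29, adjusted p 0.071) and on log2(TPM + 0.1) (-0.42, 0.325), and ranged from -0.31 to -0.18 with a library left out. PAX6 turned to -0.10 with either TPM pseudocount (adjusted p 0.663 and 0.668). For LmnB1_16 against mCherry_3, OTX2 lost its call with the offset (0.28, 0.243), with no filter (0.30, 0.107), in DESeq2 (0.29, 0.0532) and on TPM (0.20, 0.468 and 0.19, 0.399), and ranged from 0.25 to 0.32 with a library left out. For LmnB1_16 against mCherry_4, OTX2 lost it with the offset (0.38, 0.217) and on TPM (0.44, 0.19 and 0.41, 0.134) and ranged from 0.41 to 0.59 with a library left out, MITF lost it on log2(TPM + 0.1) (-0.68, 0.196), and PAX6 turned to 0.089 with the offset and 0.15 and 0.14 on TPM (range -0.067 to 0.0070 with a library left out).

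In the construct comparison PAX6 passed with at least 1 CPM in at least 3 libraries (0.58, adjusted p 0.0487), in DESeq2 (0.59, 0.0175) and without LmnB1_16 (0.97), and ranged from 0.46 to 0.67 with a library left out, passing without any 1 library of LmnB1_16. MITF passed with voom (-5.34, 0.0179), on log2(TPM + 1) (-2.64, 0.0331) and without either LmnB1 clone (-0.78 without LmnB1_6 and -9.53 without LmnB1_16), and OTX2 with voom (-4.55, 0.0417) and without LmnB1_16 (-11.21), turning to 0.39 without LmnB1_6. With the clone as a random effect in voom the adjusted p was 0.0684 for MITF, 0.121 for OTX2 and 0.259 for PAX6, and with counts summed per clone in edgeR 0.826, 0.941 and 0.778.

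The number of genes called between constructs was 2743, and 1684 and 1673 on TPM, 1392 to 3078 with a library left out, 647, 4958, 1263 and 4808 without mCherry_3, mCherry_4, LmnB1_6 and LmnB1_16, 163 with the random effect and 0 with counts summed per clone in edgeR (642 at an unadjusted p under 0.05). For LmnB1_16 against mCherry_4 it was 2411, and 1528 with the offset, 1426 and 1418 on TPM. The correlation of same-numbered deviations was low, at -0.0823 to 0.249 over 18 pairs (median 0.0464). It was highest among replicate 3 of mCherry_4, LmnB1_6 and LmnB1_16 (0.249, 0.180 and 0.178). By mean correlation, 7 of the 12 libraries were closest to libraries of their own number. Whether replicate numbers mark a shared effect was therefore not settled. With the replicate block 1648 genes were called between constructs, and OTX2 in LmnB1_16 against mCherry_3 lost its call (0.29, adjusted p 0.0576).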
